A study of Mus musculus with 12 samples.

Results

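The phagocyte NADPH oxidase genes described here are Cybb, Cyba, Ncf1, Ncf4 and Rac2, which encode parts of the oxidase, together with Hvcn1, a proton channel that works beside it, and Sod2, a mitochondrial enzyme that acts on the same oxygen radical. They were picked by symbol from a table of counts per Ensembl gene. The rule used no measured value, but the list was proposed with earlier results of these data known. These 7 genes are among 57010 rows of that table, and all 7 passed the filter on low counts that left 15943 genes for testing. Large peritoneal macrophages, which live in the cavity around the abdominal organs, were sorted as F4/80-high and MHCII-low from female mice. The 4 groups held 3 libraries each: WT naive and Tim4KO naive cells from mice given no tumour cells, and WT ID8 and Tim4KO ID8 cells taken 24 h after intraperitoneal injection. The injected cells were ID8ZGO, an ovarian tumour line that expresses the green protein ZsGreen and ovalbumin, and the recipients were 8 weeks old. From injected mice only macrophages that fluoresced were collected. Exposure to tumour cells and uptake of tumour material therefore cannot be told apart in the ID8 groups, nor can either be told apart from the sort itself. Tim4, encoded by Timd4, is a receptor for phosphatidylserine on dying cells. The comparisons ask which transcripts differ between ID8 and naive groups, and between cells with and without Tim4. How the knockout was made, and whether each library came from a separate mouse, is not given in the sources used here, so p-values measure the spread between these libraries, which may be technical.

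The oxidase makes superoxide by passing electrons from NADPH across a membrane to oxygen. Its catalytic core is a flavocytochrome of gp91phox, encoded by Cybb, and p22phox, encoded by Cyba, which stabilise each other. At rest the core is inactive. On phagocytosis cytosolic subunits, among them p47phox (Ncf1) and p40phox (Ncf4), join it, together with a GTP-bound Rac protein, which in myeloid cells is largely Rac2. The p40phox subunit binds a phosphoinositide of phagosome membranes and sustains oxidase activity there. Hvcn1 carries protons that balance the charge the oxidase moves. Sod2 is no part of the oxidase: it turns superoxide into hydrogen peroxide inside mitochondria and is also known as an inducible gene of inflammatory responses. In macrophages the oxidase serves killing of microbes and shapes the phagosome's content, including the handling of antigen. Transcript levels do not measure superoxide, since the complex is switched on by phosphorylation and assembly.

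Total counts ran from 7358559 to 23170244 per library. As a check of the labels, Timd4 was at 882 to 1489 CPM (counts scaled to a common library size with TMM factors) in the 6 WT libraries and at 1.38 to 7.71 CPM in the 6 Tim4KO libraries. The macrophage markers Gata6 and Adgre1, which encodes F4/80, were present in every library, at 120 to 194 CPM and 2569 to 6299 CPM. The sum over the 10 markers of these macrophages was 61541 to 72036 CPM in naive and 28443 to 35090 CPM in ID8 libraries. Lyz2, its largest part, was at 40527 to 47486 and 10729 to 14990, and Alox15 at 9861 to 13116 and 4751 to 8159. Adgre1, Itgam and Icam2 went the other way with no overlap between conditions. They were at 2569 to 3789, 994 to 1334 and 617 to 911 CPM in naive libraries. In ID8 libraries they were at 3932 to 6299, 1705 to 2360 and 941 to 1485 CPM. Gata6, Csf1r, Cd14, Prg4 and Garnl3 overlapped between conditions. Libraries differed in a way the groups do not fully explain: reads in olfactory and vomeronasal receptor genes, a measure of background, summed to 273 to 886 CPM in naive libraries and to 5.91 to 368 CPM in ID8 libraries. In WT cells these sums did not overlap between conditions, at 322 to 886 CPM in naive and 5.91 to 255 CPM in ID8 libraries. A fit with this sum as a covariate therefore cannot cleanly tell challenge from background in WT cells. The library WT ID8 3 stood apart, with the lowest background sum, the fewest genes with a count (21235) and the largest total. Marker levels of other cell types also differed between conditions. The sum over 11 neutrophil markers was 9.01 to 11.7 CPM in naive and 12.4 to 34.7 CPM in ID8 libraries, of which S100a8 gave 4.40 to 7.38 and 9.13 to 24.8. Retnlg was at 0.0 to 1.86 CPM in naive and 0.601 to 11.9 in ID8 libraries, S100a9 at 0.0668 to 1.24 and 0.456 to 3.91, and Cxcr2 at 0.0 to 0.957 and 0.183 to 3.34. Ly6g and Ngp had at most 4 counts in any library and were each at 0 in 6 libraries. Mmp8, at 0.328 to 2.37 CPM in naive and 0.228 to 1.27 in ID8 libraries, had a lower maximum in ID8 libraries. So had Mpo, Elane and Camp, while Ltf was at 0.266 to 0.542 and 0.0 to 0.831. The sum over 7 B cell markers was 9.57 to 26.9 CPM in naive and 3.95 to 9.55 CPM in ID8 libraries. Of these, Cd79a alone had a higher maximum in ID8 libraries, at 1.07 to 2.82 and 0.859 to 2.99. The sum over 8 monocyte, small macrophage and dendritic cell markers was 84.2 to 109 and 44.5 to 91.5. Cd209a gave 24.4 to 39.5 of that and 3.27 to 6.66. Irf4, Ccr2, Flt3 and Zbtb46 also had a lower maximum in ID8 libraries. Clec10a, at 22.8 to 29.6 and 25.1 to 44.4, Ly6c2, at 0.349 to 1.23 and 0.691 to 3.74, and Xcr1 had a higher one. Mast cell markers summed to 12.4 to 34.2 CPM in naive and 1.61 to 9.15 CPM in ID8 libraries, epithelial or ID8 tumour markers to 5.81 to 24.5 and 1.10 to 5.63, T or NK cell markers to 3.99 to 6.93 and 3.57 to 9.45, and eosinophil markers to 2.53 to 4.56 and 1.98 to 4.46. Neutrophils, B cells and monocytes also use oxidase genes, and the part of these cells in the results was not tested beyond those values. In sorted bulk cells, fewer cells that express a gene and less of its RNA per cell cannot be told apart.

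Promoters are shown as the sequence next to the start of the transcripts counted, for the genes where a table held them. RefSeq promoters on GRCm38.p6 were matched for 4 of the 7 genes. Each line gives the 250 bases before the annotated start, 5′ to 3′ on the gene's strand, with matches to 4 short motifs in capitals: GAGGAA (the core bound by PU.1), GGGCGG (a GC box), paired GAAA (GAAA, any 2 bases, then GAAA again, as interferon regulatory factors bind) and CCAAT, each searched on both strands.
Cybb, chrX:9469325-9469574, minus strand: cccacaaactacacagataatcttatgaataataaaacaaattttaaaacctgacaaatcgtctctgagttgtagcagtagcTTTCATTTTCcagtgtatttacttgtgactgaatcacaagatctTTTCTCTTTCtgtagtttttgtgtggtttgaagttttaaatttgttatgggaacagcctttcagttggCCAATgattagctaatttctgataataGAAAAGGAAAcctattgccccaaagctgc
Cyba, chr8:122432941-122433190, minus strand: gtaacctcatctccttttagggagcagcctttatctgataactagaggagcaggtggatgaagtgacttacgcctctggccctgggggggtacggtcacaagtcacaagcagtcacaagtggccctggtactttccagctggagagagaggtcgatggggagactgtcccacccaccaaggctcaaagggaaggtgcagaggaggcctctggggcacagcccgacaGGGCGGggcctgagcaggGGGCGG
Ncf1, chr5:134229626-134229875, minus strand: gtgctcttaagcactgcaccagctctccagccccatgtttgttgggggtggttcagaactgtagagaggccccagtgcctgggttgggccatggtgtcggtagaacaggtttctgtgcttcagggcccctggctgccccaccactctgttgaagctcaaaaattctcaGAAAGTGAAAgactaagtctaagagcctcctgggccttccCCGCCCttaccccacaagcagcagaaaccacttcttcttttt
Sod2, chr17:13007589-13007838, plus strand: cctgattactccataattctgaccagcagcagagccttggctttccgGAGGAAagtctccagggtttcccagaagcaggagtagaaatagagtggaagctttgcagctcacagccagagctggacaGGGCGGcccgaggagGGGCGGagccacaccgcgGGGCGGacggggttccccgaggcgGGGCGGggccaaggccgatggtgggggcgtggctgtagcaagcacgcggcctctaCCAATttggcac

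The Cybb window is AT-rich, with 34.0% G or C against a median of 52.4% over 32817 promoters of the same length. It held 3 matches to paired GAAA, a motif found in 2.97% of those promoters, at −29 to −20 on the gene's strand and at −124 to −115 and −168 to −159 on the other strand. It also held CCAAT at −56 to −52, a motif of 33.8% of promoters. The Cyba window, at 60.0% G or C, held GGGCGG at −24 to −19 and at −6 to −1, a motif of 32.7% of promoters, and no match to paired GAAA. The Ncf1 window, at 54.4% G or C, held the reverse complement of GGGCGG at −42 to −37 and paired GAAA at −82 to −73. The Sod2 window, at 63.6% G or C, held GGGCGG at 4 places between −124 and −62, CCAAT at −12 to −8 and GAGGAA, a motif of 23.3% of promoters, at −203 to −198. Such matches describe letters only.

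All 7 genes were well above the floor of 3 counts in each library, with a lowest count of 107 for Hvcn1 and 506 for Ncf4. Averaged over the 12 libraries, Cybb lay above 99.8% of tested genes, Cyba above 99.3%, Rac2 above 98.3%, Ncf1 above 95.8%, Sod2 above 94.99%, Ncf4 above 89.5% and Hvcn1 above 58.9%. Levels were then divided by exon length so that genes could be compared with each other. In WT naive cells the order in CPM per kb of exon was Cyba (769 ± 59.9, SD, n = 3), Cybb (451 ± 103), Rac2 (134 ± 11.6), Ncf1 (55.8 ± 4.72), Ncf4 (37.5 ± 1.51), Sod2 (12.8 ± 2.57) and Hvcn1 (6.89 ± 0.979). No neighbours in that order overlapped, so the membrane core of the oxidase was the most abundant at the transcript level and the proton channel the least. The Tim4KO naive order was the same, again with no overlap between neighbours.

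The order of mean levels also held in both ID8 groups, but Ncf1 and Ncf4 then overlapped. In WT ID8 cells Ncf1 was at 75.9 ± 5.83 and Ncf4 at 73.5 ± 10.7 CPM per kb, and in Tim4KO ID8 cells they were at 72.0 ± 2.21 and 68.5 ± 3.15. When the longest transcript was used as the length instead of all exonic bases, Ncf4 ranked above Ncf1 in both ID8 groups. Every other neighbour pair stayed apart in each group.

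**Figure D1:**
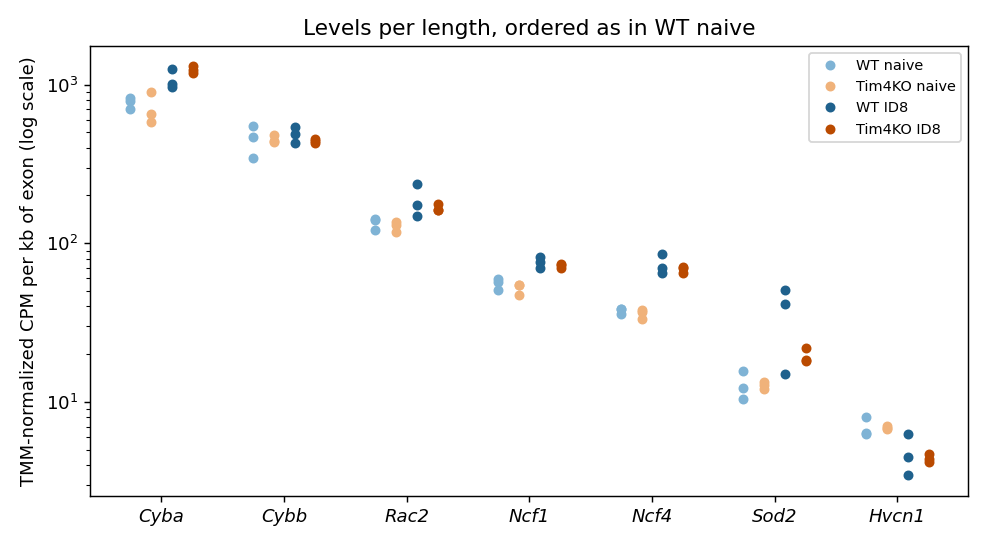
Level of each gene in CPM per kb of exon (log scale) in each of the 12 libraries, coloured by group, with genes ordered as in WT naive cells. Ncf1 and Ncf4 lie apart in the naive groups and overlap in the ID8 groups, where WT Ncf1 averaged 75.9 and WT Ncf4 73.5.

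Most of these genes differed between WT ID8 and WT naive cells in the fit of all 12 libraries. When only the 2 WT groups were fitted, Ncf4 alone kept its call, where 3102 of 14241 tested genes were called. By edgeR with an adjusted p under 0.05 over all tested genes, 5 of the 7 rose (Ncf4, Sod2, Cyba, Rac2 and Ncf1), 1 fell (Hvcn1) and Cybb did not pass, against a background of 31.8% of all 15943 genes called, 19.5% higher and 12.3% lower. Among the 10229 genes averaging 50 counts or more, as these 7 do, the background was 38.7%, with 28.8% higher and 9.9% lower. In Tim4KO cells 3 of the 7 rose (Ncf4, Cyba and Ncf1), 1 fell (Hvcn1) and 3 did not pass, against 16.6% of all genes called, 11.5% higher and 5.06% lower, and against 24.2% of genes averaging 50 counts or more, 17.3% higher and 6.91% lower. Seen as libraries, 4 of the 7 genes in WT cells (Cyba, Ncf1, Ncf4 and Rac2) and 5 in Tim4KO cells (those and Sod2) had every ID8 library above every naive library, against 23.3% and 23.7% of all genes. In the other direction it was none of the 7 in WT cells and Hvcn1 in Tim4KO cells, against 21.0% and 18.1% of all genes. The median log2 difference over the 7 genes was 0.47 in WT and 0.47 in Tim4KO cells, where the medians over all tested genes were −0.04 and −0.05. The 2 genotypes' challenge comparisons have no library in common.

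**Figure D2:**
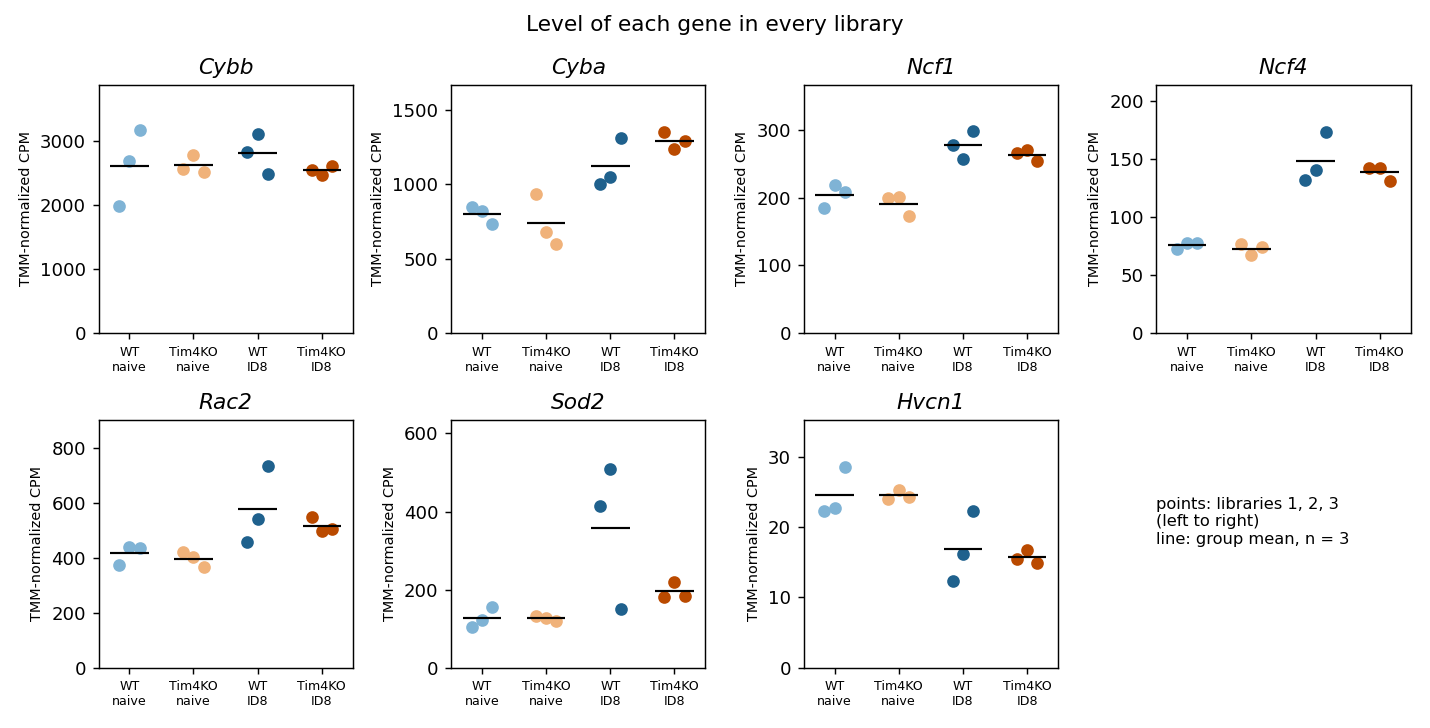
TMM-normalized CPM of each of the 7 genes in every library (points, libraries 1 to 3 from left to right) with the group mean (line, n = 3). Ncf4 separates ID8 from naive libraries in both genotypes, Cybb does not, and the Sod2 value of 150.1 in WT ID8 3 lies within the WT naive range.

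Of the membrane pair, Cybb encodes the subunit that carries the haem and flavin and so moves the electrons. Cybb was at 1992, 2696 and 3178 CPM in the WT naive libraries and at 2834, 3124 and 2492 CPM in WT ID8. In Tim4KO cells it was at 2562, 2787 and 2523 CPM in naive and 2555, 2478 and 2617 CPM in ID8 libraries. The groups overlapped in both genotypes, and the widest spread was among the WT naive libraries. The log2 difference was 0.10 (95% interval −0.23 to 0.43, edgeR adjusted p = 0.617) in WT and −0.04 (−0.37 to 0.29, edgeR adjusted p = 0.884) in Tim4KO cells. Averaged over genotypes it was 0.03, with an interval of −0.20 to 0.26.

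Cyba encodes the partner that stabilises gp91phox and docks the p47phox subunit. Its level was 850.2, 817 and 729.7 CPM in WT naive and 1000, 1050 and 1309 CPM in WT ID8 libraries. In Tim4KO cells it was 938, 677 and 599.7 CPM in naive and 1352, 1235 and 1291 CPM in ID8 libraries. All ID8 libraries were above all naive libraries of the same genotype. Cyba rose 1.40-fold in WT (log2 0.49, SE 0.16, edgeR adjusted p = 0.0323) and 1.75-fold in Tim4KO cells (log2 0.81, SE 0.16, edgeR adjusted p = 0.00362). The WT call was lost when any of 4 libraries was left out: WT naive 1, 2 or 3 (edgeR adjusted p = 0.0554, 0.0545 and 0.101) or WT ID8 3 (0.0845). It was also lost with upper-quartile scaling (log2 0.24, edgeR adjusted p = 0.218) and with the background sum as a covariate (log2 0.28, edgeR adjusted p = 0.357), and the Tim4KO call was kept in all 12 fits that left out a library.

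The ratio of Cybb to Cyba per length was 0.596 ± 0.180 in WT naive and 0.460 ± 0.104 in WT ID8 cells, and 0.659 ± 0.148 in Tim4KO naive and 0.353 ± 0.0132 in Tim4KO ID8 cells (SD, n = 3 each). In Tim4KO cells the ID8 ratios, 0.338 to 0.363, all lay below the naive ratios of 0.489 to 0.753. In WT cells the ranges overlapped, at 0.341 to 0.532 in ID8 against 0.419 to 0.779 in naive libraries.

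Among the cytosolic subunits, Ncf4 had the smallest adjusted p of the 7 genes. Its level was 72.2, 77.6 and 77.5 CPM in WT naive and 132, 141 and 173 CPM in WT ID8 libraries. In Tim4KO cells it was 76.3, 67.4 and 74.0 CPM in naive and 142, 142 and 131 CPM in ID8 libraries. The 6 ID8 libraries were well above the 6 naive libraries. Ncf4 rose 1.96-fold in WT (log2 0.97, SE 0.12, 95% interval 0.71 to 1.23, edgeR adjusted p = 6.99e-05) and 1.91-fold in Tim4KO cells (log2 0.93, SE 0.12, 0.67 to 1.19, edgeR adjusted p = 0.000195). It was called in each genotype in every fit run, including the 12 that left out a library, whose log2 differences ran from 0.87 to 1.12 in WT and from 0.90 to 0.99 in Tim4KO cells. Neutrophils also use Ncf4. The sum of their markers, though not each marker, was higher in the ID8 libraries as given above, and the part of neutrophils in the rise was not tested.

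Ncf1 encodes the organiser whose phosphorylation opens the complex to the membrane core. Ncf1 was at 185, 219 and 208 CPM in WT naive and 278, 257 and 299 CPM in WT ID8 libraries, and at 199, 201 and 173 CPM in Tim4KO naive and 266, 270.5 and 255 CPM in Tim4KO ID8 libraries. Every ID8 library exceeded every naive library. Ncf1 rose 1.36-fold in WT (log2 0.45, SE 0.12, edgeR adjusted p = 0.00999) and 1.38-fold in Tim4KO cells (log2 0.47, SE 0.12, edgeR adjusted p = 0.0133). In WT cells the call was lost with upper-quartile scaling (log2 0.21, edgeR adjusted p = 0.123) and with the background covariate (log2 0.34, edgeR adjusted p = 0.128). In Tim4KO cells it was lost without Tim4KO naive 3, Tim4KO ID8 1 or Tim4KO ID8 2 (edgeR adjusted p = 0.0947, 0.0627 and 0.0668). Of its exon bases, 11.1% overlap Gtf2ird2 on the opposite strand, which was at 4.75 to 14.6 CPM, and how strand was handled in counting is not given in the sources used here.

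The ratio of Ncf1 to Ncf4 per length was 1.49 ± 0.0715 in WT naive and 1.46 ± 0.179 in Tim4KO naive cells, and 1.04 ± 0.110 in WT ID8 and 1.05 ± 0.0191 in Tim4KO ID8 cells (SD, n = 3 each). The lowest naive ratio, 1.29, was above the highest ID8 ratio, 1.17.

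Rac2 encodes the myeloid Rac GTPase of the oxidase. Rac2 was at 376, 440.4 and 436 CPM in WT naive and 459, 543 and 734 CPM in WT ID8 libraries, and at 422, 404 and 365 CPM in Tim4KO naive and 550.3, 499.5 and 504 CPM in Tim4KO ID8 libraries. The ID8 libraries were all above the naive libraries, with WT ID8 3 the highest. Rac2 rose 1.39-fold in WT cells (log2 0.47, SE 0.15, edgeR adjusted p = 0.0299). In Tim4KO cells the log2 difference was 0.38 (95% interval 0.06 to 0.71, 1.30-fold, edgeR adjusted p = 0.105), which did not pass although the groups did not overlap. The WT call rested on WT ID8 3, WT naive 1 and WT naive 3: without them in turn the log2 differences were 0.29, 0.41 and 0.53 (edgeR adjusted p = 0.160, 0.108 and 0.0562). With the background covariate, which cannot be cleanly told apart from challenge in WT cells, the WT value was 0.09 (edgeR adjusted p = 0.727). Averaged over genotypes, Rac2 rose 1.35-fold (edgeR adjusted p = 0.00592), a call kept in all 12 fits that left out a library and lost with upper-quartile scaling (edgeR adjusted p = 0.0517) and with the background covariate (0.224).

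Rac1, the widely used relative of Rac2, was at 273 to 334 CPM in naive and 319 to 386 CPM in ID8 libraries. It did not pass in either genotype (log2 0.26 and 0.28, edgeR adjusted p = 0.103 and 0.131) and did pass when averaged over genotypes (log2 0.27, edgeR adjusted p = 0.0196). Of Rac1's exon bases, 51.4% overlap Daglb on the opposite strand. The ratio of Rac2 to Rac1 per length was 2.02 ± 0.127 in WT naive and 2.33 ± 0.459 in WT ID8 cells, and 1.97 ± 0.163 in Tim4KO naive and 2.10 ± 0.0732 in Tim4KO ID8 cells. Rap1a, a small GTPase found with the flavocytochrome, rose in WT cells (log2 0.41, edgeR adjusted p = 0.0252) and was at log2 0.30 (edgeR adjusted p = 0.126) in Tim4KO cells. Cybc1, which encodes a chaperone of the flavocytochrome in the endoplasmic reticulum, was at 75.0 to 109 CPM in naive and 63.9 to 89.0 CPM in ID8 libraries and did not pass (log2 −0.13 and −0.35, edgeR adjusted p = 0.496 and 0.115).

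**Figure D3:**
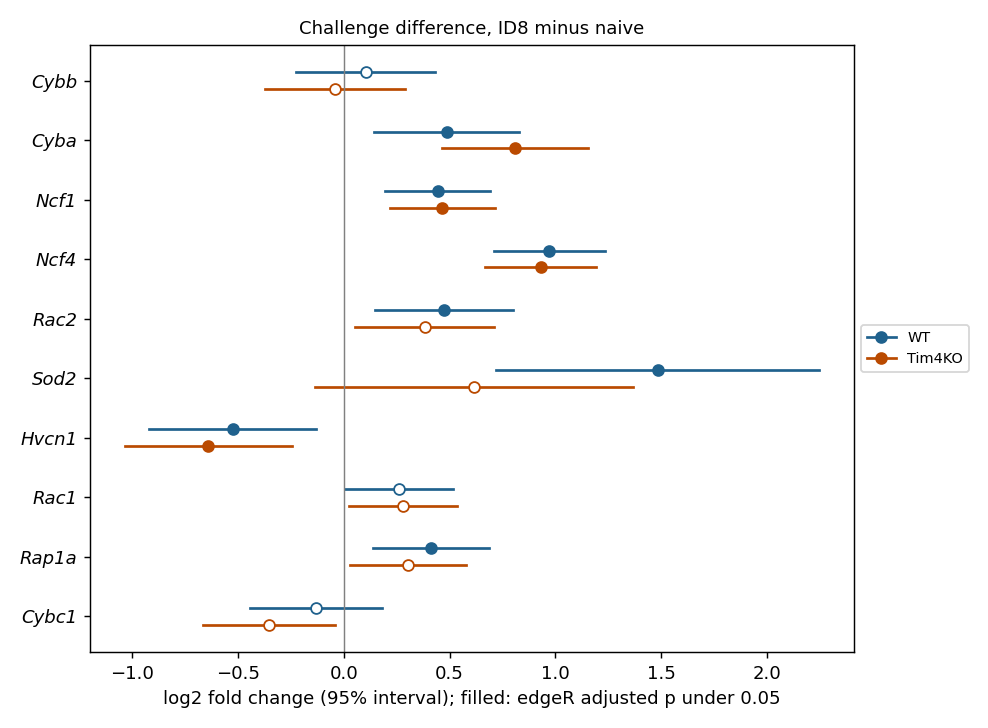
Log2 difference between ID8 and naive cells with its 95% interval in WT and Tim4KO mice for the 7 genes and for Rac1, Rap1a and Cybc1, with filled points where the edgeR adjusted p was under 0.05. Ncf4 is near 0.95 in both genotypes and Cybb near 0, while the Sod2 intervals are the widest.

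Hvcn1, the proton channel, went the other way. Its level was 22.3, 22.8 and 28.6 CPM in WT naive and 12.3, 16.2 and 22.3 CPM in WT ID8 libraries. In Tim4KO cells it was 24.0, 25.3 and 24.3 CPM in naive and 15.5, 16.8 and 14.9 CPM in ID8 libraries. In Tim4KO cells the groups were apart, and in WT cells WT ID8 3 reached the naive range. Hvcn1 fell to 0.695-fold in WT (log2 −0.52, SE 0.18, edgeR adjusted p = 0.0418) and to 0.642-fold in Tim4KO cells (log2 −0.64, SE 0.19, edgeR adjusted p = 0.0286). These calls were near the threshold. The WT call was kept in 1 of 12 fits that left out a library, the fit without WT ID8 3 (log2 −0.75, edgeR adjusted p = 0.00181), and adjusted p reached 0.229 in the others. The Tim4KO call was kept in 6 of the 12, and lost when any library of the Tim4KO groups was left out. Averaged over genotypes, Hvcn1 fell to 0.668-fold (log2 −0.58, edgeR adjusted p = 0.00268), and this held in all 12.

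Counts of Hvcn1 share exons with another gene. Of its 3563 exon bases, 1574 overlap Tctn1 on the opposite strand. Tctn1 was at 3.45 to 9.41 CPM and fell as well, by log2 −0.72 in WT (edgeR adjusted p = 0.0197) and −0.92 in Tim4KO cells (edgeR adjusted p = 0.00833). Without known strand handling, reads of the overlap could belong to either gene. B cells also use Hvcn1. The sum of their markers, though not each marker, was lower in the ID8 libraries as given above. The part of B cells in the fall of Hvcn1 was not tested.

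Sod2 had the largest rise of the 7 genes in WT cells and also the widest interval. It was at 105, 123 and 156 CPM in WT naive libraries and at 415, 509 and 150.1 CPM in WT ID8. In Tim4KO cells it was at 133, 129 and 121 CPM in naive and 182, 221 and 183 CPM in ID8 libraries. WT ID8 1 and 2 were far above every other library, WT ID8 3 lay among the naive libraries, and the Tim4KO ID8 libraries were close together just above the naive range. Sod2 rose 2.80-fold in WT cells (log2 1.48, SE 0.35, 95% interval 0.72 to 2.24, edgeR adjusted p = 0.00847). This call was lost when only the 2 groups compared were fitted (log2 1.37, edgeR adjusted p = 0.0574). In Tim4KO cells the log2 difference was 0.62 (−0.14 to 1.37, 1.53-fold, edgeR adjusted p = 0.260). Without WT ID8 3 the WT rise was log2 1.88 and the Tim4KO difference, 0.63, passed (edgeR adjusted p = 0.00332).

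Averaged over genotypes, 5 of the 7 genes rose and Hvcn1 fell, against 42.0% of all tested genes called, 24.0% higher and 18.0% lower. Among genes averaging 50 counts or more it was 50.2%, with 34.9% higher and 15.3% lower. The rises were 1.93-fold for Ncf4, 2.07-fold for Sod2, 1.57-fold for Cyba, 1.37-fold for Ncf1 and 1.35-fold for Rac2, with edgeR adjusted p from 1.5e-06 to 0.00592. This split of 5 and 1 was the same in each of the 12 fits that left out a library, where 5442 to 8819 of all tested genes were called. In WT cells alone the number of the 7 that rose depended on scaling: 5 with TMM factors, 3 with RLE factors and 2 with upper-quartile scaling. Of all 15943 tested genes, 3105, 2750 and 1799 rose in those fits. Upper-quartile scaling moved the median of all tested genes from −0.04 to −0.28. With the background sum as a covariate 2 of the 7 rose, Ncf4 and Sod2, where 2266 of all tested genes did. The limit of that fit in WT cells is given above.

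Genotype differences were small in naive cells. None of the 7 genes passed between Tim4KO naive and WT naive cells by edgeR, where 0.0439% of all genes (7 genes) were called and 999 had an unadjusted p under 0.05. The smallest unadjusted p among the 7 was 0.408, for Ncf1, and neither DESeq2 nor limma voom called any of them. The means were 2624 ± 143 against 2622 ± 596 CPM for Cybb, 738 ± 177 against 799 ± 62.2 for Cyba, 191 ± 15.7 against 204 ± 17.3 for Ncf1 and 72.5 ± 4.62 against 75.8 ± 3.05 for Ncf4. They were 397 ± 29.2 against 417 ± 36.1 CPM for Rac2, 24.5 ± 0.674 against 24.6 ± 3.49 for Hvcn1 and 128 ± 6.03 against 128 ± 25.7 for Sod2. The 7 log2 differences ran from −0.11 for Cyba to 0.00 for Cybb. The intervals still allow differences of moderate size: −0.33 to 0.33 for Cybb, −0.35 to 0.15 for Ncf1, −0.32 to 0.20 for Ncf4 and −0.76 to 0.74 for Sod2.

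In ID8 cells none of the 7 genes passed between genotypes either, where 0.0565% of all genes (9 genes) were called. DESeq2 and limma voom called none of the 7 either, and Sod2 alone had an unadjusted p under 0.05 (0.0265 by edgeR). Means in Tim4KO ID8 and WT ID8 cells were 2550 ± 69.8 and 2816 ± 316 CPM for Cybb, 1293 ± 58.8 and 1120 ± 166 for Cyba, 264 ± 8.10 and 278 ± 21.3 for Ncf1 and 138 ± 6.36 and 148 ± 21.6 for Ncf4. They were 518 ± 28.2 and 579 ± 141 CPM for Rac2, 15.7 ± 0.954 and 16.9 ± 5.04 for Hvcn1 and 195 ± 21.8 and 358 ± 186 for Sod2. The WT ID8 libraries were the more spread for each gene. Intervals of the log2 difference were −0.47 to 0.19 for Cybb, −0.13 to 0.55 for Cyba and −0.33 to 0.17 for Ncf1. They were −0.36 to 0.16 for Ncf4, −0.49 to 0.17 for Rac2 and −0.51 to 0.28 for Hvcn1.

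Sod2 was the gene whose genotype comparison turned on a single library. With all 12 libraries its log2 difference between Tim4KO ID8 and WT ID8 cells was −0.87 (95% interval −1.62 to −0.12, edgeR adjusted p = 0.353). Without WT ID8 3, the library at 150.1 CPM, it was −1.25 (edgeR adjusted p = 4.79e-05), and 997 of all genes were then called in place of 9. In the other 11 fits that left out a library Sod2 did not pass. The libraries WT ID8 1 and 2 also had more background reads, 255 and 79.7 CPM, than WT ID8 3 at 5.91. Tim4KO ID8 1, 2 and 3 had 40.4, 368 and 290 CPM of background, with Sod2 at 182, 221 and 183 CPM. The part of background reads in these Sod2 levels was not tested. With the background sum as a covariate in the fit of all 12 libraries the Sod2 difference was −1.09 (edgeR adjusted p = 0.0888).

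The interaction asks whether the challenge difference itself differed between genotypes. None of the 7 genes passed by edgeR, and 0.0% of all genes did, with 1186 at an unadjusted p under 0.05, while DESeq2 called 11 genes and limma voom 0. The smallest unadjusted p among the 7 was 0.0987, for Sod2, and no tool called any of them. The Tim4KO minus WT values were 0.32 for Cyba (95% interval −0.16 to 0.81, edgeR adjusted p = 0.725) and −0.87 for Sod2 (−1.93 to 0.19, edgeR adjusted p = 0.697). For Ncf4 the value was −0.04 (−0.41 to 0.33), for Ncf1 0.02 (−0.33 to 0.37), for Rac2 −0.09 (−0.55 to 0.37), for Cybb −0.14 (−0.61 to 0.32) and for Hvcn1 −0.12 (−0.67 to 0.44). A smaller rise of Cyba in WT cells, or of Sod2 and Rac2 in Tim4KO cells, was thus not shown with all libraries. Without WT ID8 3 the Sod2 interaction was −1.25 (edgeR adjusted p = 0.00447), and 368 genes were called.

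**Figure D4:**
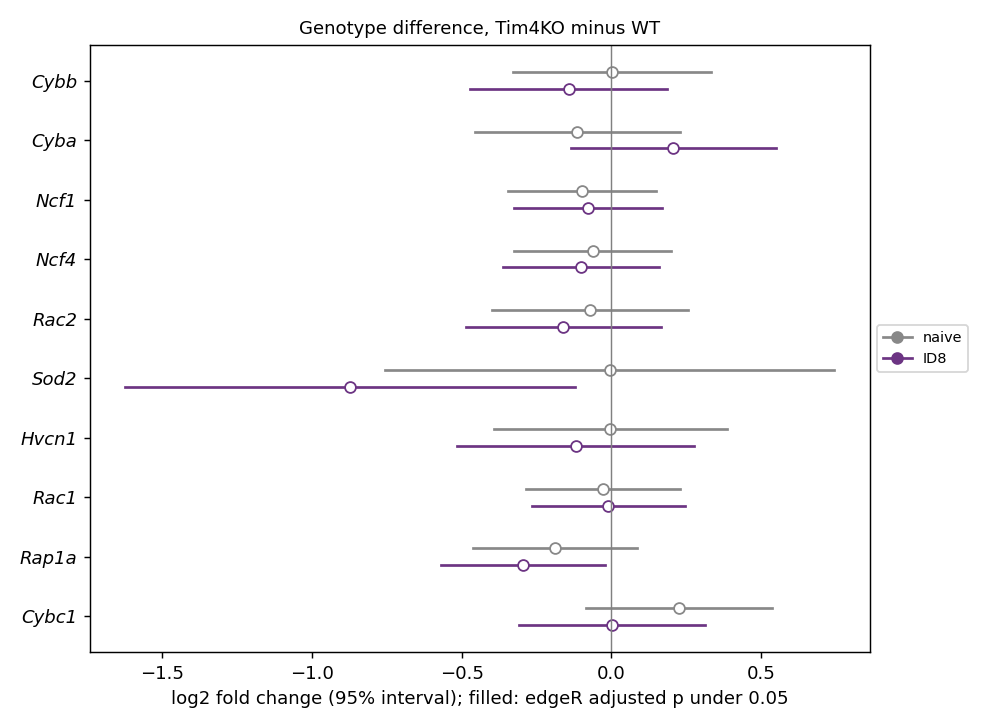
Log2 difference between Tim4KO and WT cells with its 95% interval, in naive and in ID8 cells, for the same genes. No point is filled, since no edgeR adjusted p was under 0.05, and the Sod2 value of −0.87 in ID8 cells is the farthest from 0.

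Profiles over the 12 libraries were compared as the root-mean-square difference of log2 CPM, each gene centred on its own mean. These values describe libraries that share groups, and carry no test. Ncf1 and Rac2 were the closest pair of the 7 genes (0.128), followed by Cyba and Ncf1 (0.211), and Sod2 and Hvcn1 the farthest (0.962). Cybb was nearer to Ncf1 (0.267) and Hvcn1 (0.389) than to its protein partner Cyba (0.434). Such distances also depend on how much each gene varied around its own mean. That root-mean-square spread was 0.167 for Cybb, 0.247 for Ncf1, 0.343 for Hvcn1 and 0.380 for Cyba. The distances from Cybb to these genes all exceeded its own spread, so they do not show that it shared their profile. Over all 9632 genes compared, the genes nearest to Ncf1 were Cmip (0.0675), Isyna1 (0.0854) and Spi1 (0.0860). Those nearest to Cyba were Lamtor2 (0.0675), Icam2 (0.0754) and Sdhb (0.0821), and those nearest to Ncf4 were Nup62 (0.0837), Litaf (0.110) and Kpnb1 (0.111). Cybb was nearest to Prpf6 (0.0865), Sos1 and App, Rac2 to Spidr (0.0835), Lpxn and Etfa, and Hvcn1 to Zkscan17 (0.112), Ppt1 and Cox7a2l. No gene was as near to Sod2: Pinx1, Bpnt1 and Dkc1 were at 0.208 to 0.212. The median distance over all genes was 0.297 for Cybb and 0.662 for Sod2.

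Other NADPH oxidases were close to undetected. Of 9 genes, 7 did not pass the filter on low counts: Nox1, Nox3, Noxa1, Duox1, Duox2, Duoxa1 and Duoxa2. Nox4, an oxidase that needs no cytosolic subunits, was at group means of 0.149 to 1.40 CPM and fell when averaged over genotypes (log2 −2.02, edgeR adjusted p = 0.0225). These levels are near the floor of 3 counts, which was 0.137 to 0.399 CPM by library. The background sums also ran lower in ID8 libraries as given above, and their part in the fall of Nox4 was not tested. Noxo1 was at a group mean of at most 0.763 CPM and did not pass. Nox4 and Noxo1 were far below Cybb, whose group means were 2550 to 2816 CPM.

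Of 22 genes of signalling to the oxidase and its Rac protein, activators and inhibitors together, 3 rose and 3 fell in WT cells, where 19.5% of all tested genes rose and 12.3% fell. In Tim4KO cells 1 rose and 2 fell, where 11.5% of all rose and 5.06% fell. The medians over the 22 genes were 0.06 and 0.05, and the total shares called were near those over all genes. Among genes averaging 50 counts or more, as these 22 do, more were called, 38.7% in WT and 24.2% in Tim4KO cells. Of those genes 28.8% rose and 9.9% fell in WT cells, and 17.3% rose and 6.91% fell in Tim4KO cells. Those that rose in WT cells were Arhgdia (log2 0.80, edgeR adjusted p = 0.000361), which encodes an inhibitor that holds Rac in the cytosol, Pla2g4a (1.08, 0.000664), the cytosolic phospholipase that frees arachidonic acid, and Pak2 (0.36, 0.0356), a kinase activated by Rac. Those that fell were Pik3cg (−0.63, 0.00996), a phosphoinositide kinase of G-protein signalling, Tiam1 (−0.47, 0.0456), a Rac exchange factor, and Pik3c3 (−0.33, 0.0483), which makes the lipid that p40phox binds. In Tim4KO cells Arhgdia rose (0.67, edgeR adjusted p = 0.00236) and Pik3cg (−0.71, 0.00908) and Tiam1 (−0.56, 0.0356) fell. With upper-quartile scaling 2 of the 22 rose and 6 fell in WT cells, where 1799 of the 15943 tested genes rose and 3508 fell.

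Enzymes that remove superoxide and peroxide, listed apart from Sod2, rose in part. Of 16 genes 15 were tested, and 8 rose and 1 fell in WT cells and 7 rose in Tim4KO cells by edgeR, with medians of 0.55 and 0.62 beside −0.04 and −0.05 over all tested genes. Of all tested genes 19.5% rose and 12.3% fell in WT cells and 11.5% rose in Tim4KO cells, and among those averaging 50 counts or more 28.8% and 17.3% rose. Txnrd1, the cytosolic thioredoxin reductase, went from 57.6 ± 8.04 to 143 ± 28.0 CPM in WT cells (log2 1.31, edgeR adjusted p = 3.5e-05) and from 60.3 ± 2.87 to 92.6 ± 7.61 in Tim4KO cells (0.62, edgeR adjusted p = 0.0122). The peroxiredoxins Prdx1, Prdx2, Prdx3 and Prdx6 and the thioredoxins Txn1 and Txn2 rose in both genotypes. Prdx1 went from 974.9 ± 41.9 to 1633 ± 162 CPM in WT cells (0.74, edgeR adjusted p = 0.000764) and Prdx2 from 73.2 ± 9.58 to 146 ± 5.30 CPM in Tim4KO cells (0.99, edgeR adjusted p = 0.000148). Cat, the peroxisomal catalase, fell in WT cells from 186 ± 22.9 to 115 ± 9.84 CPM (−0.70, edgeR adjusted p = 0.0013) and was at −0.33 (edgeR adjusted p = 0.104) in Tim4KO cells. Sod1, the cytosolic relative of Sod2, did not pass in either genotype (−0.32 and −0.10, edgeR adjusted p = 0.210 and 0.752). Without Tim4KO naive 2, 3 of the 15 rose in Tim4KO cells in place of 7. In that fit 940 of 17361 tested genes rose, in place of 1836 of 15943. With upper-quartile scaling 7 of the 15 rose and 2 fell in WT cells, where 1799 of the 15943 tested genes rose and 3508 fell.

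**Figure D5:**
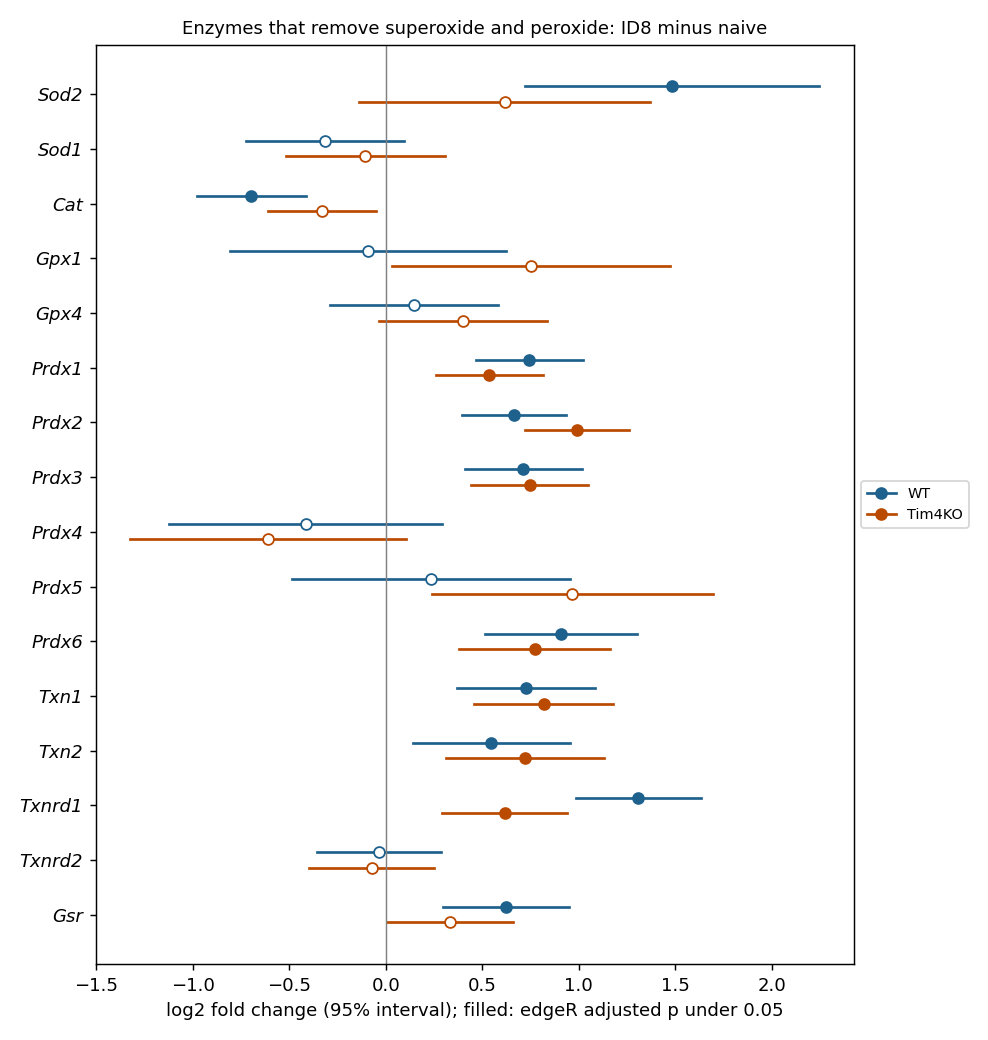
Log2 difference between ID8 and naive cells with its 95% interval in WT and Tim4KO mice for Sod2 and the 15 tested enzymes that remove superoxide and peroxide, with filled points where the edgeR adjusted p was under 0.05. Txnrd1 reaches 1.31 in WT cells, Cat is the only filled point below 0, and the Sod1 intervals include 0.

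Of 9 transcription factors known to act on the gp91phox gene, Spi1 and Cux1 rose in both genotypes and Irf2 fell in both. In all, 3 of the 9 were called in WT and, with Nfkb1, 4 in Tim4KO cells. Of all tested genes 31.8% and 16.6% were called, and of those averaging 50 counts or more 38.7% and 24.2%. The WT count is thus near the background. Spi1, which encodes PU.1, went from 239 ± 9.90 to 339 ± 4.08 CPM in WT cells (log2 0.50, edgeR adjusted p = 0.00449) and from 237 ± 28.0 to 310.3 ± 16.4 CPM in Tim4KO cells (0.39, edgeR adjusted p = 0.0302). Cux1, which encodes a repressor of that gene, rose by 0.93 and 0.78 (edgeR adjusted p = 8.8e-05 and 0.000657). Irf2 was at −0.66 and −0.58 (edgeR adjusted p = 0.0011 and 0.00457), and Nfkb1 fell in Tim4KO cells (−0.44, edgeR adjusted p = 0.0431) and was at −0.15 in WT cells (edgeR adjusted p = 0.421), with an interaction that did not pass (edgeR adjusted p = 0.715). The medians over the 9 genes were −0.04 and −0.24. Cybb itself did not pass in either genotype, as given above. No gene of these 5 lists passed in a genotype comparison or as an interaction.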

How the data were processed

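The deposited values were counts of reads per Ensembl gene, 1 table of the authors with 12 columns, read as raw from whole numbers with unequal totals. Per the labels' protocols, the RNeasy micro kit gave the RNA and the SMART-Seq mRNA LP kit the libraries, which rest on amplified cDNA. FastQC and STAR 2.5 are named, with no role, in the submitters' processing notes. Those notes name mm10 for 12 libraries and GRCm39 for 11 of them, so the build of the counts is unsettled. The counting program, annotation, strand handling and treatment of reads that map to several places are not given in the sources used here. Gene names, exon lengths and overlaps came from GENCODE vM21, which named 52029 of 57010 identifiers, and all 7 genes matched.

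Total counts per library, 7358559 to 23170244, set the precision, and a floor of 3 counts covers counting error only. Differences were tested two-sided with edgeR 4.0.16 in R 4.3.3: TMM factors (0.896 to 1.09), filterByExpr with a minimum count of 10, a robust quasi-likelihood fit of group means over 12 libraries and 8 residual degrees of freedom, and Benjamini-Hochberg adjustment over 15943 genes with a threshold of 0.05. SE is the absolute log2 difference over the square root of F. Levels are TMM-scaled CPM, as mean ± SD over 3 libraries. The alternatives were RLE factors or upper-quartile scaling, no filter, DESeq2 1.42.0, limma 3.58.1 voom, only the groups compared, the replicate number as a block, a background covariate (log2 CPM summed over 1946 receptor genes of at most 1 CPM on average), and leaving out each library.

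The members, the gene lists and the tests were chosen with earlier results of these data known. Named by rule were the 7 genes, Rac1, Rap1a, Cybc1, Timd4, up to 3 called genes per list, direction and challenge comparison by smallest p, and the 3 genes most like each of the 7 among those with a mean count of at least 50. Other names in the text were picked with values in view. A result for another gene is not reported here. Replicate numbers were not taken as pairs. Deviations from group means correlated at r −0.0918 to 0.336 (median 0.0661) over 18 same-numbered pairs of libraries. Over 36 differently numbered pairs they correlated at r −0.359 to 0.310 (median −0.0213).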

Additional observations from a re-analysis of the deposited data

How the results depend on the processing

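Ncf4 kept its rise in each genotype under every alternative, and 0 of the 62 signs that turned over the 7 genes' differences belonged to a called value. With only the groups compared, 3102 genes were called for challenge in WT cells, where leaving out a library gave 3362 to 7230. Leaving out a library gave 1222 to 3595 for challenge in Tim4KO cells, 1 to 29 for genotype in naive cells, 1 to 997 for genotype in ID8 cells and 0 to 368 for the interaction. Genotype in naive cells called 59 genes without the filter, 52 with DESeq2, 3 with voom, 3 with the replicate block and 2 with only the groups compared. Genotype in ID8 cells called 264 without the filter, 266 with DESeq2, 14 with the replicate block and 177 with the background covariate. The interaction called 73 without the filter, 11 with DESeq2 and 2 with the background covariate. In each case the cause was not tested.

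Signs turned only for small values that were not called. Cybb turned for challenge in WT with upper-quartile scaling (−0.13), for challenge in Tim4KO without the filter (0.0086), and for the averaged challenge with RLE factors (−0.019), upper-quartile scaling (−0.15) and DESeq2 (−0.019). For genotype in naive cells, Cybb turned with RLE factors (−0.015), upper-quartile scaling (−0.043), DESeq2 (−0.015) and only the groups compared (−0.013), Sod2 without the filter (0.0029), with voom (0.011) and with the background covariate (0.083), and Hvcn1 without the filter (0.0069) and with the replicate block (0.0080). For genotype in ID8 cells the background covariate turned Ncf4 (0.0028), Rac2 (0.049) and Hvcn1 (0.11). For the interaction, Ncf1 turned without the filter (−0.036), Ncf4, Rac2 and Hvcn1 with upper-quartile scaling (0.08, 0.036 and 0.012) and with the background covariate (0.090, 0.17 and 0.16). Leaving out a library gave Cybb −0.052 to 0.29 for challenge in WT, −0.057 to 0.020 in Tim4KO and −0.044 to 0.13 averaged. For genotype in naive cells it gave Cybb −0.16 to 0.17, Cyba −0.32 to 0.020, Sod2 −0.13 to 0.16 and Hvcn1 −0.067 to 0.13. For genotype in ID8 cells it gave Ncf4 −0.23 to 0.024, Rac2 −0.35 to 0.049 and Hvcn1 −0.35 to 0.13. For the interaction it gave Cybb −0.32 to 0.016, Ncf1 −0.068 to 0.083, Ncf4 −0.18 to 0.079, Rac2 −0.29 to 0.11 and Hvcn1 −0.35 to 0.13.

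With only the groups compared, the WT challenge calls of Cyba, Ncf1, Rac2, Sod2 and Hvcn1 were lost (adjusted p = 0.109, 0.0840, 0.171, 0.0574 and 0.0914) and Rac2 and Sod2 passed in Tim4KO cells (0.0275 and 0.00377). RLE factors ended the WT calls of Cyba and Rac2 (0.0600 and 0.0532), and no filter ended both calls of Hvcn1 (0.181 in WT and 0.0602 in Tim4KO). The replicate block, with 4 of 12 libraries closest to their own number, changed no call of the 7 genes in the challenge comparisons and gave 4619, 2562 and 6176 called genes for WT, Tim4KO and the average. The lowest count of the 7 genes was 107, for Hvcn1, and the number of libraries, 3 a group, limits every test.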
